A study of Mus musculus with 16 samples.

Results

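Cxcr2, Csf3r, Trem1, Clec4d and Il1r2 encode surface receptors that are abundant on neutrophils, and their transcripts were followed in mouse colon with and without colitis. The 5 genes were taken by symbol, and all 5 were found among the 5171 genes of the deposited tables. RNA came from unfractionated tissue of the central part of the colon of male C57BL/6 mice. There were 4 groups, with 3 WT control, 3 Smarcad1-KO control, 5 WT colitis and 5 KO colitis libraries. KO mice carried loxP-flanked Smarcad1 exons and Cre recombinase under the villin promoter, which is active in the intestinal epithelium, and Smarcad1 is a chromatin remodelling ATPase. All groups, controls included, had been given an enriched microbiota from donor mice of another facility, which began 2 weeks before colitis induction in the treated mice. To induce colitis, mice drank water with 1% dextran sodium sulphate (DSS), which injures the mucosa, over 15 days, whereas controls were untreated. The KO mice came from 1 floxed line, cohorts were matched for age, and the age itself is not given in the sources used here.

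Neutrophils are short-lived granulocytes that leave the blood for inflamed mucosa, and DSS colitis is known for their influx. The receptors studied here cover successive steps of that life: growth factor signals in the marrow, chemokine guidance into tissue, amplification of the response to microbes, recognition of fungal and bacterial glycolipids, and capture of interleukin 1. Cre under the villin promoter is active in epithelium and not in neutrophils. None of the receptors is exclusive to neutrophils, since monocytes and macrophages carry several of them.

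The tables give the authors' mean per group on the log2 RPM scale (reads scaled to library size), without values of single libraries. No SD, test or p-value is therefore set beside the differences below, and they were not weighed against the spread between mice. The geometric mean library size, recovered from the steps that whole reads leave in the lowest means, was between 8.005 and 10.1 M reads, so that 3 reads per library, taken as the floor, lay between −1.75 and −1.42 log2 RPM. Counting errors given below cover the sampling of reads only. In whole tissue, fewer cells of a type and less RNA per cell cannot be told apart. As a check of the labels, Smarcad1 was lower in KO than in WT by 1.18 in control and by 1.13 in colitis on the log2 scale. The series text names the small intestine, whereas the sample labels give colon. The colon genes Car1, Aqp8 and Slc26a3 had means of 9.36 to 11.74 log2 RPM in all groups, and the only listed small intestine gene, Fabp6, had means of 1.22 to 3.11.

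Cxcr2 is the receptor for the neutrophil-attracting CXC chemokines. It lies at chr1:74153989-74161246 (GRCm38, plus strand, protein coding). Its log2 RPM mean was −3.44 in both WT and KO control, which corresponds to 1 read in all over the 3 WT libraries and to 0 reads in each of the 3 KO libraries. In colitis the mean was 3.09 in WT and 1.42 in KO. Cxcr2 was thus nearly undetected in healthy colon at this depth and counted with 68.3 reads per library (geometric mean) in WT colitis and 26.4 in KO colitis. Set against 3 reads per library, the colitis mean was 28.7-fold higher in WT and, with every control library at 0, at least 8.71-fold higher in KO. For the single WT control read, a total of at least 341 reads in WT colitis (5 times the geometric mean) gives a depth-scaled ratio of 259, with an exact 95% counting interval of 46.1 to 10241. The KO mean in colitis was 31.4% of the WT mean, a log2 difference of −1.67 with a counting error of 0.148 (SE).

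Csf3r, the receptor for granulocyte colony-stimulating factor (G-CSF), drives the formation and survival of neutrophils. It lies at chr4:126024550-126044440 on the plus strand. On the log2 RPM scale its mean was 0.57 in WT control, 1.15 in KO control, 5.00 in WT colitis and 4.10 in KO colitis. It was the best-counted of the 5, with 257 reads per library in WT colitis and 169 in KO colitis. The colitis mean was 21.6-fold the control mean in WT and 7.74-fold in KO. In colitis the KO mean was 53.4% of the WT mean (log2 difference −0.90, counting SE 0.0639). Csf3r was the member whose control means differed most between genotypes, with KO above WT by 0.57 (counting SE 0.278), so the smaller fold in KO holds a higher control mean as well as a lower colitis mean.

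Trem1 encodes an amplifier of inflammatory signals in myeloid cells that signals through the adaptor Tyrobp. It lies at chr17:48232768-48246924 on the plus strand, in the cluster of Trem genes, and overlaps a processed pseudogene on the minus strand. Control means were −2.39 log2 RPM for WT and −2.14 for KO, both under the floor, with 1 library at 0 in each group. The colitis mean was 2.62 in WT and 1.12 in KO. As deposited, the means were 32.3-fold apart in WT and 9.62-fold in KO, and with the control means raised to 3 reads they were 20.8-fold and 7.09-fold apart. The KO mean in colitis was 35.3% of that in WT (log2 difference −1.50, counting SE 0.167).

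Clec4d encodes a C-type lectin for microbial glycolipids that signals through the Fc receptor gamma chain (Fcer1g). It lies at chr6:123262111-123275265 on the plus strand, next to the related lectin genes. Its mean was −0.96 log2 RPM in WT control, −0.60 in KO control, 3.40 in WT colitis and 2.29 in KO colitis. The control means rested on only 5.19 and 6.46 reads per library. The colitis mean was 20.6-fold the control mean in WT and 7.37-fold in KO. In colitis the KO mean was 46.1% of the WT mean (log2 difference −1.12, counting SE 0.117).

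Il1r2 encodes the decoy receptor for interleukin 1, which binds the cytokine without passing on a signal. It lies at chr1:40074079-40125231 on the plus strand and overlaps an antisense gene (Gm16894) and an unclassified transcript on its own strand (Gm37347). Reads of Gm37347 cannot be told apart by strand, and for Gm16894 the use of strand in counting is not given in the sources used here. Its mean was −0.08 log2 RPM in WT control, −0.19 in KO control, 3.41 in WT colitis and 2.66 in KO colitis. The colitis mean was 11.2-fold the control mean in WT and 7.20-fold in KO, the smallest ratio of the 5 genes in WT. Il1r2 also showed the smallest genotype difference in colitis, as the KO mean was 59.3% of that in WT (log2 difference −0.75, counting SE 0.107).

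**Figure D1:**
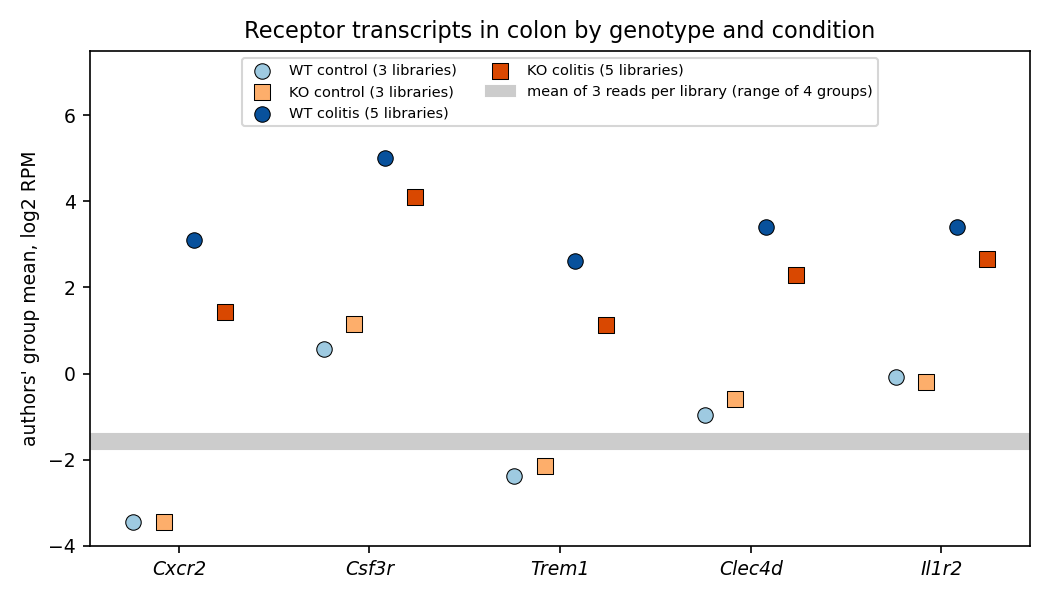
Authors' group means of the 5 receptor genes (log2 RPM, y axis) in the 4 groups, 1 point per group, with no error bars because single libraries were not used; the grey band is the mean of 3 reads per library. All 5 colitis means lie above the control means in both genotypes, the KO colitis mean is below the WT colitis mean for each gene, and the control means of Cxcr2 and Trem1 are under the band.

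All 5 receptors were higher in colitis than in control by at least 1 log2 unit in both genotypes. Of all listed genes, 18.4% (WT) and 16.0% (KO) were higher by that much. Over the members, the median difference was 4.43 in WT and 2.95 in KO, against 0.13 and 0.19 over all listed genes. A gene is listed only if it passed the authors' threshold in at least 1 comparison, so these medians describe a selected set of genes. Csf3r, Cxcr2, Clec4d and Il1r2 were listed for colitis in both genotypes, as were 42.2% of all listed genes, and Trem1 was listed for colitis in KO alone. No member was listed in either comparison of KO with WT, which hold 1.08% (colitis) and 0.89% (control) of all listed genes.

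In colitis, all 5 members had lower means in KO than in WT, as did 52.6% of all listed genes. For Cxcr2, Trem1 and Clec4d the KO mean was lower by at least 1 log2 unit, which held for 2.9% of all listed genes. The median over the members was −1.12, against −0.01 over all listed genes. Genes with large colitis differences in WT were often lower in KO, however. Among the 111 listed genes with a WT colitis difference at least as large as that of Il1r2, 48.6% were lower in KO by at least 1 and their median was −0.99, close to that of the receptors. The comparisons of colitis with control in WT and of KO with WT in colitis share the WT colitis libraries, so a high WT colitis mean enters both.

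In control, the KO minus WT difference could be read for 3 members, at 0.57 for Csf3r, 0.37 for Clec4d (counting SE 0.484) and −0.11 for Il1r2 (counting SE 0.390). Those of Clec4d and Il1r2 were smaller than their counting error. For Cxcr2 and Trem1 both control means were at or under the floor, so no difference between genotypes was detectable at this depth. The difference between the genotypes' colitis changes, KO minus WT, was −1.48 for Csf3r, −1.48 for Clec4d and −0.64 for Il1r2 (log2). For Cxcr2 and Trem1 it depends on control means at or under the floor, and with these raised to 3 reads it was −1.72 and −1.55, against −1.67 and −1.75 as deposited. This double difference uses all 4 groups, and it was not tested, since group means were used.

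**Figure D2:**
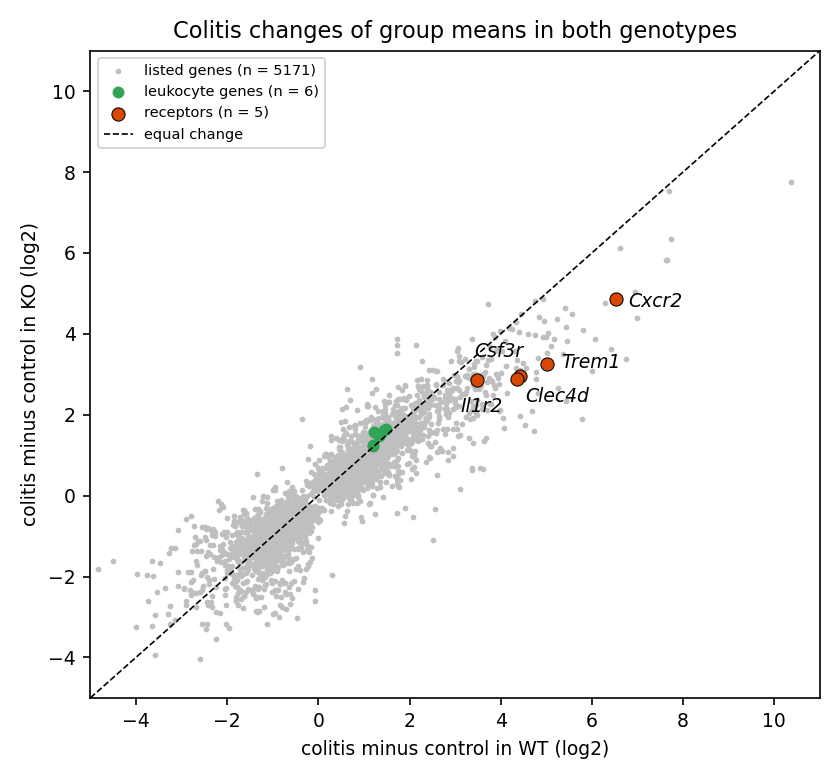
Differences of group means between colitis and control (log2) in WT (x axis) and KO (y axis) for the 5171 listed genes, with the 5 receptors in orange, 6 general leukocyte genes in green and the line of equal change dashed. The receptors lie to the right of the bulk and below the dashed line, with Cxcr2 at 6.53 in WT and 4.86 in KO as deposited (4.85 and 3.12 with its control means raised to 3 reads), while the leukocyte genes lie on or slightly above the line.

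To compare the receptors with each other, levels were divided by the merged exon length of each gene. On this scale of RPM per kb, Csf3r was highest in WT colitis (8.90), followed by Clec4d (6.61), Il1r2 (5.58), Cxcr2 (2.80) and Trem1 (2.06). In KO colitis the order was Csf3r (4.75), Il1r2 (3.31), Clec4d (3.05), Cxcr2 (0.878) and Trem1 (0.727), so Clec4d and Il1r2 changed places. In control the members were all under 1 RPM per kb, with Il1r2 highest in WT (0.497) and Csf3r highest in KO (0.614). Whether neighbours in these orders differ beyond the spread between mice was not examined. Summed over the 5 genes, the level per length was 1.32 RPM per kb in WT control, 1.59 in KO control, 25.9 in WT colitis and 12.7 in KO colitis.

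**Figure D3:**
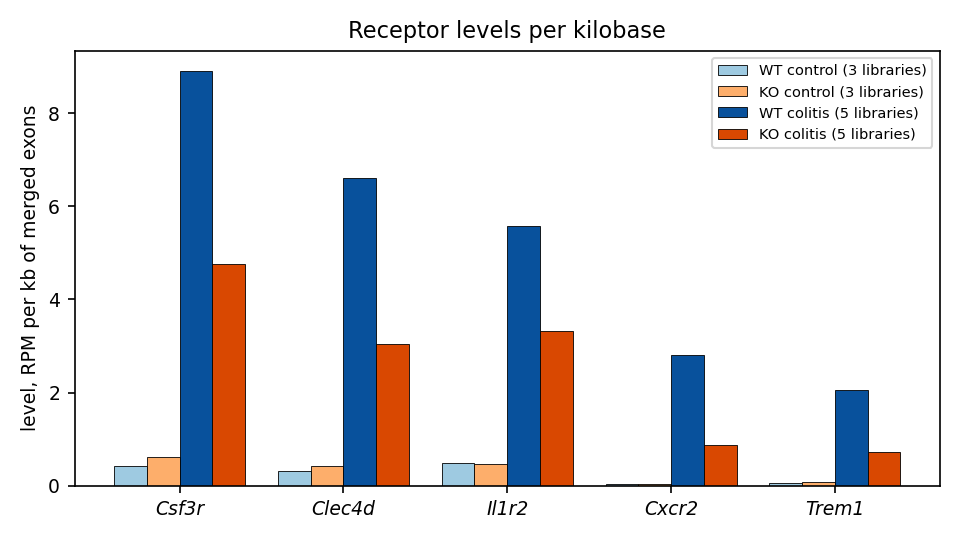
Levels of the 5 receptors in RPM per kb of merged exon length (y axis, linear from 0), 1 bar per group from the authors' group mean and no error bars. Csf3r is the tallest in colitis of both genotypes (8.90 in WT and 4.75 in KO), and Cxcr2 and Trem1 are the lowest in colitis and barely visible in control.

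The ligands of these receptors were examined next. None of the ligand, partner, neighbour, neutrophil or cell marker genes below was listed for KO against WT in colitis. That comparison held 1.08% of all listed genes. Of the Cxcr2 ligands, 4 of 6 were listed (Cxcl1, Cxcl2, Cxcl3 and Cxcl5). All 4 had lower means in KO colitis than in WT colitis by at least 1. The log2 difference was −1.23 for Cxcl1, −1.61 for Cxcl5, −2.37 for Cxcl2 and −3.06 for Cxcl3. The KO colitis mean of Cxcl3 rested on 4.58 reads per library, just above the floor. A KO mean lower by at least 1 was found for 2.9% of all listed genes. It was found for 48.6% of the 111 genes with WT colitis differences at least as large as that of Il1r2. The 4 ligands belong to these 111, with WT colitis differences of at least 4.99. Whether the ligands differ from the rest of that set was not tested. Summed over the ligands, the level in KO colitis was 29.9% of that in WT colitis, next to 31.4% for the receptor Cxcr2 itself. Csf3, the gene of G-CSF, had means of −3.44 log2 RPM in both control groups, 0.64 in WT colitis and −1.77 in KO colitis. Its mean in KO colitis was thus still under the floor, and in WT colitis it was above the floor. For Il1r2, the ligand genes Il1a and Il1b were lower in KO colitis by 1.62 and 1.22, while Il1rn, the receptor antagonist, differed by −0.35.

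The signalling partners, and the Trem1 ligand gene Pglyrp1, behaved otherwise. Tyrobp, the adaptor of Trem1, had means of 6.47 log2 RPM in WT colitis and 6.37 in KO colitis, and Pglyrp1, a peptidoglycan recognition protein that binds Trem1, had 9.31 and 9.18. Fcer1g, the adaptor of Clec4d, had 5.86 and 5.50, and Card9, which relays its signal, had 2.20 and 1.80. Tyrobp, Fcer1g and Card9 are shared by many myeloid receptors. Each of them, and Pglyrp1 as well, differed by less than 0.5 between the genotypes in colitis. The colitis differences of these 4 genes in WT were also smaller, at 1.10 (Pglyrp1) to 2.11 (Fcer1g), against 3.49 to 6.53 for the receptors. Clec4e, Syk, Bcl10, Malt1, Il1r1 and Il1rap were not listed and were not analysed here.

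Genes next to the receptors on the chromosome were set beside them. Of 18 genes of the same families in these clusters, 12 were listed, and their median KO minus WT difference in colitis was −0.19. Trem3, 853 bp from Trem1, differed by −1.82, from 0.47 log2 RPM in WT colitis to −1.35 in KO colitis, with both control means at or under the floor. Its KO colitis mean rested on 3.86 reads per library, just above the floor. Trem2, Treml2 and Treml4 of the same cluster differed by −0.26, −0.21 and −0.18. Around Clec4d, the listed lectin genes Clec4n, Clec4a1, Clec4a2 and Clec4a3 differed by −0.20 to −0.08, and Clec4b1 by 0.26. Near Il1r2, Il1rl1, the receptor for interleukin 33, differed by −0.89, and the interleukin 18 receptor genes Il18rap and Il18r1 by −0.47 and −0.07. The genotype difference in the Trem and Clec4 clusters was therefore uneven, and it was largest for Trem1 and Trem3 in the first and for Clec4d in the second among the listed genes.

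Other genes of the neutrophil surface did not all follow the receptors. Of 16 such genes, 14 were listed, 11 of them lower and 3 higher in KO colitis, with a median of −0.45. Lower means in KO colitis were found for 52.6% of all listed genes, and for 104 of the 111 genes with WT colitis differences at least as large as that of Il1r2. The formyl peptide receptors Fpr1 (−1.22) and Fpr2 (−1.11) and the Fc receptor Fcgr4 (−0.71) were the lowest of the 14. At the other end, Ly6g, the usual antibody marker of mouse neutrophils and a member of a family of closely similar genes, had means of 7.70 log2 RPM in WT colitis and 7.88 in KO colitis. Cd177, a neutrophil surface glycoprotein, had 9.88 and 10.27. Both were already at 6.52 or above in each control group, whereas the 5 receptors were at 1.15 or below there.

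Neutrophil granule and cytosol genes had a larger median difference of means between the genotypes than the receptors, which was not tested. Of 16 such genes 8 were listed, all 8 with lower means in KO colitis, at a median of −1.98. Of all listed genes, 52.6% had lower means in KO colitis. Of the 111 genes with WT colitis differences at least as large as that of Il1r2, 104 had lower means in KO colitis. The WT colitis differences of the 8 granule and cytosol genes had a median of 4.21, and the smallest was 1.76. None of the 8 was listed for KO against WT in colitis. S100a8 and S100a9, the subunits of calprotectin, had KO means in colitis of 15.9% and 14.7% of the WT means, and Mmp8, the neutrophil collagenase, had 16.4%. Ltf, the granule protein lactoferrin, had 98.8%. Ltf (−0.02), Retnlg (−0.80) and Mmp9 (−0.93) had smaller log2 differences than the receptor median of −1.12. In KO colitis the means of Mmp8 and Prtn3 rested on 5.29 and 3.06 reads per library, near the floor. That of Stfa2l1 was under the floor. The summed level of these 8 genes was 177 RPM in WT colitis and 46.1 RPM in KO colitis.

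Markers of other cells were given the same reading. The 9 listed of 12 monocyte and macrophage genes had a summed level of 1032 RPM in WT colitis and 1024 RPM in KO colitis, with differences of −0.35 to 0.24. The 5 T cell genes differed by −0.12 to 0.27. The 6 general leukocyte genes differed by −0.03 to 0.25, among them Ptprc, the pan-leukocyte phosphatase CD45, by 0.08. Taken relative to Ptprc, the median KO minus WT difference of the receptors in colitis was −1.20. Mast cell genes, 4 of 6 listed, differed by −0.79 to 0.19, and 1 gene each was listed for eosinophils (Ccr3, 0.31), platelets (Gp1bb, −0.24) and B cells (Cd79b, 0.91). Of 11 colon epithelium genes only 3 were listed, and they differed between the genotypes in colitis in both directions, by −0.81 for Car1, 0.59 for Aqp8 and 0.59 for Slc26a3. Fabp6, the only listed gene of 7 for small intestine, differed by 1.21. Their part in the receptor differences was not tested.

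**Figure D4:**
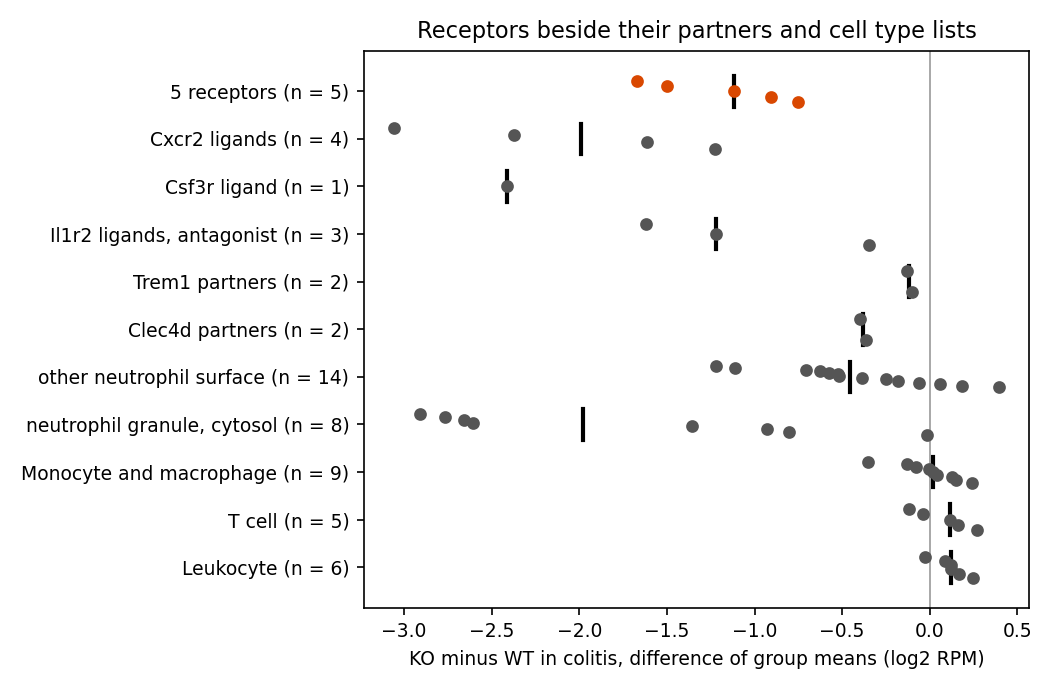
KO minus WT difference of group means in colitis (log2 RPM, x axis) for each listed gene of the receptors, their ligands and partners, and the cell type lists, with 1 point per gene and a vertical bar at the median. The receptors lie between −1.67 and −0.75, the medians of the Cxcr2 ligands (−1.99) and of the granule genes (−1.98) lie lower, and macrophage, T cell and leukocyte genes lie around 0. The KO colitis means of Csf3 and of the granule list gene Stfa2l1 were under the floor.

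Genes with the most similar pattern were sought by distance over 3 log2 differences (colitis with control in each genotype, and KO with WT in control) among 5050 genes. Clec4d was closest to Fpr2 (distance 0.09), C6, a complement component (0.22), and Csf3r (0.23). Csf3r was closest to C6 (0.11), Fpr2 (0.19) and Clec4d (0.23), so that each of these receptors was among the 3 nearest genes of the other. Il1r2 was closest to Tnfrsf9 (0.17), Osm (0.20) and Gm9733 (0.21). Trem1 was closest to Ifng (0.31), Gzmb (0.60) and A2m (0.65), and Cxcr2 to Prss22 (0.29), Saa3 (0.46) and Cxcl2 (0.71). Trem1 and Cxcr2 had control means at or under the floor, as did several of their neighbours, and their distances are the less certain for it. The same holds for C6, at −2.23 log2 RPM in WT control, and for Gm9733, at −3.49 in WT and −3.44 in KO control. The distance of 0.23 between Csf3r and Clec4d was smaller than the counting SE of each Clec4d difference used (0.367, 0.336 and 0.484).

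The promoter windows of the 5 genes, 250 bases before to 50 after the RefSeq start, were searched on both strands for 4 motifs of factors known in myeloid genes. The C/EBP motif TTNNGNAA was found in Trem1 (1 match) and Clec4d (3 matches), and 40.7% of 32851 windows hold it. The STAT motif TTCNNNGAA was found in Trem1 and Il1r2, and 8.30% of windows hold it. The Il1r2 window lies at a RefSeq start within the gene, with the start 12014 bases after the gene start given above. The PU.1 motif GAGGAAGT (3.20% of windows) and the AP-1 motif TGANTCA (7.81%) matched in 0 of the 5. In no motif did more than 2 of the 5 windows match, and a match is a description of letters, not a binding site. The windows of Clec4d (chr6:123261857-123262156) and Csf3r (chr4:126024409-126024708), which were the closest pair of members by pattern, and of Trem1 (chr17:48232489-48232788), which holds both matched motifs, are shown from RefSeq (GRCm38.p6, plus strand, 5′ to 3′) with the matches in capitals. Clec4d and Csf3r did not share a match.
Clec4d: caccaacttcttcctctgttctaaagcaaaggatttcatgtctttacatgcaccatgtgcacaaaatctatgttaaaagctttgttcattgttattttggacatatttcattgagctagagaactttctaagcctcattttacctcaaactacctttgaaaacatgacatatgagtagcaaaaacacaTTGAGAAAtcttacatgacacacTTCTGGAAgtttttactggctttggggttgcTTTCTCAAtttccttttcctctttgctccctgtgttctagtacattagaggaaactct
Csf3r: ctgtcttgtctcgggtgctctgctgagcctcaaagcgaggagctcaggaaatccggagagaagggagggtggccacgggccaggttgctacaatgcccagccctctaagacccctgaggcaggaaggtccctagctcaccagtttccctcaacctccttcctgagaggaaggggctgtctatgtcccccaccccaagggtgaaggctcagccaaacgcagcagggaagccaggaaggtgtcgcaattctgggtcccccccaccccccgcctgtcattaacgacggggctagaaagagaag
Trem1: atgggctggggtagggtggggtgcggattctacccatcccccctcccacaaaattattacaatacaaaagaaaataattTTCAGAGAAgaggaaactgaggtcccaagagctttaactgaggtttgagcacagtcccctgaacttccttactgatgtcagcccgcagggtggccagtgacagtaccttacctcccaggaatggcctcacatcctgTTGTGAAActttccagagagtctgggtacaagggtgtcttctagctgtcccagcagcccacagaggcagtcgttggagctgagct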

How the data were processed

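RNA-seq was performed on 16 libraries of unfractionated mouse colon tissue in 4 groups. Per the labels and the study's methods, the authors mapped reads to GRCm38 with HISAT2 2.1.0, counted uniquely mapped reads over exons in SeqMonk after removing ribosomal RNA reads, which contaminated some samples, and compared groups with DESeq2. The 4 deposited tables hold genes past an adjusted p-value of 0.05, with log2 RPM as the authors' mean per group, not corrected for length. Their adjusted p-value column, deposited by the authors, was not used. A count of 0 stands as 0.9 reads in these means.

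The members and lists were chosen with earlier results of these data known. Differences of means were computed in Python 3.11.15 with pandas 2.3.3, numpy 2.4.6 and scipy 1.17.1, and the depth step was tested on simulated data. Planned tests on single libraries were not run, since the tables hold group means. Planned protein comparisons were not made. Named genes are the members, the 3 nearest to each by pattern, and members of the lists, among which ligands, partners, neighbours and the extremes were given by value. Merged exon lengths came from GENCODE M21, where 5091 of 5171 symbols matched, and promoters from RefSeq, where all 5 members matched. Alternatives were a floor of 3 reads, recentring, log2(RPM + 1), scaling to Ptprc, leaving out members, transcript length and another set of background genes.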

Additional observations from a re-analysis of the deposited data

How the results depend on the processing

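No replicate was left out and no spread between mice was computed, because the deposited tables used here hold group means. No paired analysis was possible because the columns are group means and carry no replicate number. A shift beyond 1.96 counting errors was taken as movement. With low means raised to 3 reads or with recentring on all listed genes, all 4 medians over the members stayed within that limit. For the KO minus WT median in control the limit was 1.57, too wide to show movement. That median was 0.25 as deposited and 0.05 with low means raised to 3 reads. With log2(RPM + 1), the median colitis difference was 2.93 (WT) and 1.82 (KO), a scale that understates changes of low genes. Relative to Ptprc it was 3.09 (WT) and 1.48 (KO). Under both of these alternatives the colitis medians of WT and KO moved beyond the limit. The median KO minus WT difference in colitis lay between −1.20 and −0.98 under these 4 alternatives, and between −1.31 and −1.01 when each member was left out in turn. The median difference between the colitis changes of KO and WT was −1.48 as deposited and with low means raised to 3 reads, an alternative added after seeing the data. The median member was Clec4d, whose means are all above the floor, so this alternative could not move its value. Of 65 alternatives for single members, 45 stayed within the limit, 20 moved and 0 reversed. The floor of 3 reads could not move any value of Csf3r, Clec4d or Il1r2, nor any KO minus WT difference in colitis. For Cxcr2 the limit was 2.83 (colitis difference in WT), 1.74 (in KO) and 3.32 (difference between them), wide enough to hide large shifts. The count is therefore no measure of robustness. The share of genes lower in KO colitis by at least 1 was 2.9% of all listed genes, 5.44% of the 1895 genes higher in colitis and listed in WT, and 48.6% of the 111 genes with WT differences at least as large as that of Il1r2, a set chosen after seeing the data. The order of the members by level per length was the same with the longest transcript as with merged exons, with 20 of 20 ranks shared.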

Other observations

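Trem1 was listed for colitis in KO but not in WT, although the difference of its means was larger in WT (5.01) than in KO (3.27). Among the 28 listed genes with a WT colitis difference at least as large as that of Trem1, 5 were not listed for WT, namely Acod1, Cxcl2, Gzma, Il1b and Trem1. All 5 were listed for colitis in KO. A gene not listed for WT had to be listed in another comparison to be included here. The comparisons of KO with WT held only 1.08% (colitis) and 0.89% (control) of all listed genes. Listing in KO was therefore nearly fixed by the selection. Of the 5 genes, Il1b had means of 1.07 log2 RPM in WT control and 6.53 in WT colitis, far above the floor. The values of single libraries behind these means were not used here.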
